A study of Homo sapiens with 2 samples.

Results

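The HOX clusters are 4 runs of homeobox genes, HOXA on chromosome 7, HOXB on chromosome 17, HOXC on chromosome 12 and HOXD on chromosome 2. Peaks of an anti-HA pulldown from cells with tagged ETV6 were taken from them and from 500 kb on either side of each. The peaks taken were those whose summit fell in fixed hg19 windows. The windows were chr7:27130000-27250000 for HOXA, chr17:46600000-46810000 for HOXB, chr12:54330000-54450000 for HOXC and chr2:176950000-177060000 for HOXD. Of the 315787 peaks in the list, 652 lay in these regions, 62 of them inside the clusters and 590 in the flanks. The windows are fixed by position, although the regions were chosen with earlier results of these data known.

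The peaks came from chromatin immunoprecipitation sequencing in Reh, a long-established cell line from a pre-B acute lymphoblastic leukaemia that carries the t(12;21) translocation. Cells were transduced with lentiviral pCCL ETV6-HA, which encodes ETV6 with an HA epitope tag, and the control cells with untagged pCCL ETV6. Both arms received 200 ng of concentrated virus with polybrene at 8 µg/mL, had their medium changed after 24 h and were grown for 2 weeks. Both arms thus carried an added ETV6 vector, and both went through a pulldown with anti-HA magnetic beads. Each arm was made in triplicate per the series design but is given as 1 pooled library, and the tagged pool has the 1 peak list analysed here. No spread between replicates can be measured, no comparison between the libraries was made, and all intervals are 95% intervals for counting error over peaks or reads only.

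ETV6 is an ETS-family factor that acts mainly as a repressor and binds DNA around a GGAA core. HOX genes encode homeodomain transcription factors that set position along the body axis in the embryo, and in blood several of them, HOXA9 among these, are active in stem and progenitor cells and in some leukaemias. Genes of a cluster lie mostly in the order of their paralogue numbers. By gene order in the RefSeq table of GRCh38.p14, HOXA holds 11 HOX genes, HOXB 10, HOXC 9 and HOXD 9. HOXA lies between SKAP2, a signalling adaptor gene, and the homeobox gene EVX1. HOXB lies between SKAP1, which encodes an adaptor of T-cell signalling, and TTLL6. HOXC lies between CALCOCO1 and SMUG1, the gene of a uracil-DNA glycosylase of base repair, and HOXD between the homeobox gene EVX2 and MTX2, which encodes a mitochondrial outer membrane protein. PRAC1 and PRAC2 lie among the HOXB genes. The table and the peaks are of different builds, so no peak was assigned to a gene.

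To show what ETS-type letters HOX promoters hold, the 250 bases before each RefSeq start were searched on both strands, in GRCh38.p14. The table matched 20 of the HOX genes, 9 in HOXA, 1 in HOXB, 2 in HOXC and 8 in HOXD, with 26 distinct windows. GGAA was found in 22 of the 26 HOX windows (84.6%, Clopper-Pearson interval 65.1 to 95.6), against 92.7% of all 35116 windows. CCGGAA, a longer form that contains GGAA, was found in 0 of the 26 HOX windows (0%, Clopper-Pearson upper bound 13.2%), against 14.5% of all windows. CCGGAAGT, which contains both shorter motifs, was found in 0 of the 26 HOX windows and in 3.42% of all windows. The HOX windows are not independent, since HOXA3 and HOXA10 have several windows each and 16 of the 26 are from HOXA. Median GC content was 58.8% in the HOX windows and 58% in all windows. The median number of GGAA matches was 2 in the HOX windows, with a range of 0 to 6, and 3 in all windows. HOXB and HOXC had 1 distinct window each, so none was selected there. The window with the most GGAA matches in each cluster is printed 5′ to 3′ on the strand of its gene, with GGAA and its reverse complement TTCC in capitals.
HOXA11: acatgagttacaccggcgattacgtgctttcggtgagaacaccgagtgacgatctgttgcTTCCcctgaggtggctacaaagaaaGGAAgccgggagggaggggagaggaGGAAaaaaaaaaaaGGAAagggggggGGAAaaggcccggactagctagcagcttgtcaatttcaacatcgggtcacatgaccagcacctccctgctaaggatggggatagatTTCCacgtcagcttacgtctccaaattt
HOXB1: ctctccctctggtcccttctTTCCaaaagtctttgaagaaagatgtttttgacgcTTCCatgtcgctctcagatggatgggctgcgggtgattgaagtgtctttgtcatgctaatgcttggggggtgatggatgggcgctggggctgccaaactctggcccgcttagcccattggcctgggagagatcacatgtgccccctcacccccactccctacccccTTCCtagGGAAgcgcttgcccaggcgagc
HOXC4: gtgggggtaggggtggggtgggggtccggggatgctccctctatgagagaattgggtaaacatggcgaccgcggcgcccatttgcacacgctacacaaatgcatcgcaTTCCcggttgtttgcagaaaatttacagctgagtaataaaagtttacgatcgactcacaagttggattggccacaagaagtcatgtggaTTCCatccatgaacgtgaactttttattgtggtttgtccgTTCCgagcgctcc
HOXD4: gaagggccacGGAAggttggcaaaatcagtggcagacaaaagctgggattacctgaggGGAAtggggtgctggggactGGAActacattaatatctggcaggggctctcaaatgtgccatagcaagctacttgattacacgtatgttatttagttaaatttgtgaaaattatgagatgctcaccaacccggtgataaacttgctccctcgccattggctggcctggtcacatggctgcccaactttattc
The HOXA11 window held 6 matches, that of HOXB1 4, that of HOXC4 (listed also for HOXC5) 3 and that of HOXD4 3. These matches describe the letters only. They are not tied to any peak, because the sequences could not be placed in hg19.

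In HOXA, HOXB and HOXC the peak list of the tagged pool had fewer peaks per Mb inside the cluster than in the flanks. In HOXD it had slightly more. In 0 of 4 clusters did the difference pass the test, an exact conditional binomial test with Benjamini-Hochberg adjustment. At an unadjusted p under 0.05 the number was 1. Inside, 9 peaks lay in the 120 kb of HOXA, 28 in the 210 kb of HOXB, 13 in the 120 kb of HOXC and 12 in the 110 kb of HOXD. The flanks, 1000 kb for each cluster, held 117 peaks around HOXA, 173 around HOXB, 200 around HOXC and 100 around HOXD.

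**Figure D1:**
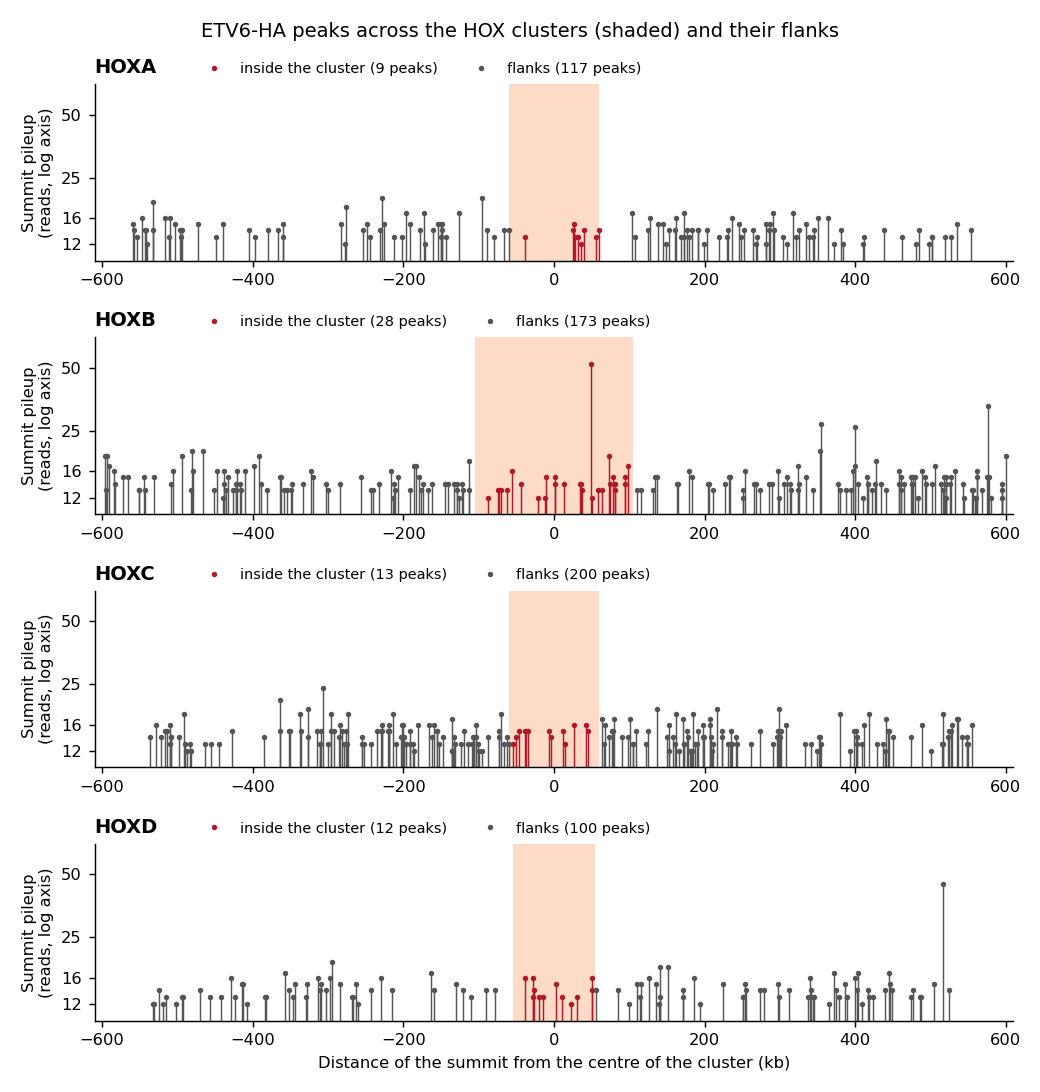
Summit pileup of each peak (reads, log axis) against the distance of its summit from the centre of the cluster (kb), with the cluster shaded, red peaks inside it and grey peaks in its flanks. Most peaks stand below 20 reads, and the tallest are 1 peak of 52 reads inside HOXB, 1 of 45 reads in the higher flank of HOXD and 1 of 33 reads in the higher flank of HOXB.

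Within the fixed windows, HOXC differed most from its surroundings. It had 108.3 peaks per Mb inside (57.7 to 185.3), against 200 in its flanks (173.2 to 229.7), a ratio of 0.542 (0.283 to 0.948). The two-sided exact conditional binomial test gave p = 0.0265 and an adjusted p of 0.106 over the 4 clusters. The value depended on the limits and on what the cluster was set against. With the limits moved out by 20 kb on each side, HOXC held 25 peaks in place of 13 and the ratio was 0.798 (0.503 to 1.21, exact adjusted p = 0.437), while that of HOXA, at 0.574, was then the lowest. With flanks of 100 kb the ratio was 0.442 and passed the threshold of 0.05, with an exact adjusted p of 0.0325, whereas against the rest of chromosome 12 the ratio was 0.964. The flanks of HOXC were denser than its chromosome, which had 112.3 peaks per Mb, and the cluster itself was near the level of the chromosome.

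HOXA had 75 peaks per Mb inside (34.3 to 142.4), the lowest value of the 4 clusters, against 117 in its flanks (96.8 to 140.2). The ratio was 0.641 (0.286 to 1.26), with an exact adjusted p of 0.33. HOXB had 133.3 per Mb inside (88.6 to 192.7) against 173 in its flanks (148.2 to 200.8), a ratio of 0.771 (0.498 to 1.15) with an exact adjusted p of 0.33. HOXD had 109.1 per Mb inside (56.4 to 190.6) against 100 in its flanks (81.4 to 121.6), a ratio of 1.09 (0.545 to 1.99) with an exact adjusted p of 0.751. The direction in HOXD was not stable: with the limits of the window moved out by 20 kb the ratio was 0.84. Had the clusters been as dense as their flanks, 85.4 peaks would have lain inside them, against the 62 found, a ratio of 0.726. This joined value was added after the counts were seen and has no test.

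**Figure D2:**
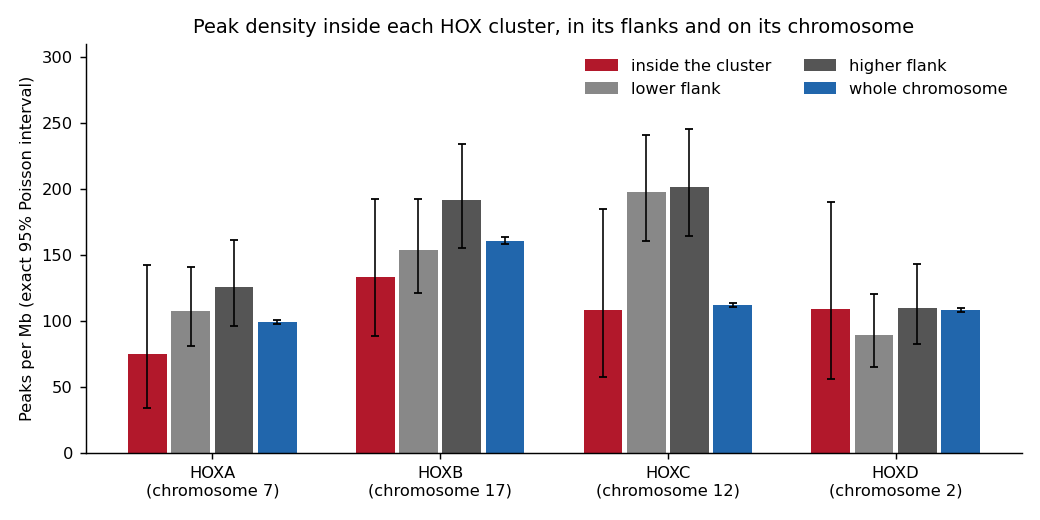
Peaks per Mb inside each cluster, in its lower-coordinate and higher-coordinate flank and on its whole chromosome, with exact Poisson intervals as bars. The 4 intervals inside the clusters overlap each other, and the HOXC cluster, at 108.3 per Mb, stands below flanks of 198 and 202 per Mb but near the 112.3 per Mb of its chromosome.

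Among the clusters in the fixed windows, HOXB was the densest and HOXA the sparsest. In the exact conditional binomial test 0 of the 6 pairs differed beyond counting error, and 0 had an unadjusted p under 0.05. The top rank of HOXB was not stable. With the limits moved out by 20 kb, HOXC had 156.25 peaks per Mb and HOXB 136. At q of at most 0.01, HOXB over HOXD was 0.698. Within the fixed windows, HOXB over HOXA gave the most extreme ratio, 1.78 (0.816 to 4.28), with an exact adjusted p of 0.753 over the pairs. HOXD over HOXA was 1.45 (0.563 to 3.91), HOXC over HOXA 1.44 (0.571 to 3.83), HOXB over HOXC 1.23 (0.617 to 2.59) and HOXB over HOXD 1.22 (0.602 to 2.64). HOXD over HOXC was 1.01 (0.42 to 2.39). With upper bounds between 2.39 and 4.28, no pair can be called alike. With the limits moved out by 20 kb, HOXC over HOXA was 2.27 (1.08 to 5.12) with an exact unadjusted p of 0.0288, and HOXB over HOXA 1.98 (0.979 to 4.33) with an exact unadjusted p of 0.0473. The exact adjusted p was 0.142 for both, so 0 of the 6 pairs passed there too. In the flanks the order was another, with HOXC the densest and HOXD the sparsest.

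The lower and higher flanks of each cluster did not differ beyond counting error in the same kind of test. The lower flank held 54 peaks and the higher flank 63 around HOXA, 77 and 96 around HOXB, 99 and 101 around HOXC, and 45 and 55 around HOXD. The ratios of lower to higher flank lay between 0.802 and 0.98, with exact adjusted p of 0.613 to 0.944. Within the flanks the counts per 100 kb ranged from 3 to 19 around HOXA, 10 to 28 around HOXB, 6 to 32 around HOXC and 5 to 17 around HOXD. The steps of 100 kb next to HOXC held 29 peaks on the lower and 20 on the higher side, whereas those next to HOXD held 5 and 12. Scaled to 100 kb, the density of each cluster lies inside the range of its own flanks.

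Beside the autosomes cut into tiles of the cluster's width, the counts stood in the middle of the range. At least the 9 peaks of HOXA were held by 60.9% of 23266 tiles of 120 kb, and at most as many by 43.8%. At most the 13 peaks of HOXC were held by 59.5% of these tiles, and at least as many by 43.9%. At least the 28 peaks of HOXB were held by 33.5% of 13290 tiles of 210 kb, and at most as many by 68.1%. At most the 12 peaks of HOXD were held by 60.2% of 25381 tiles of 110 kb, and at least as many by 43.9%. The median tile held 11 peaks at 120 kb, 20 at 210 kb and 10 at 110 kb, so HOXA lay below the median tile and the other 3 clusters above it. Tiles without any peak, 1406 of them at 120 kb, were kept.

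**Figure D3:**
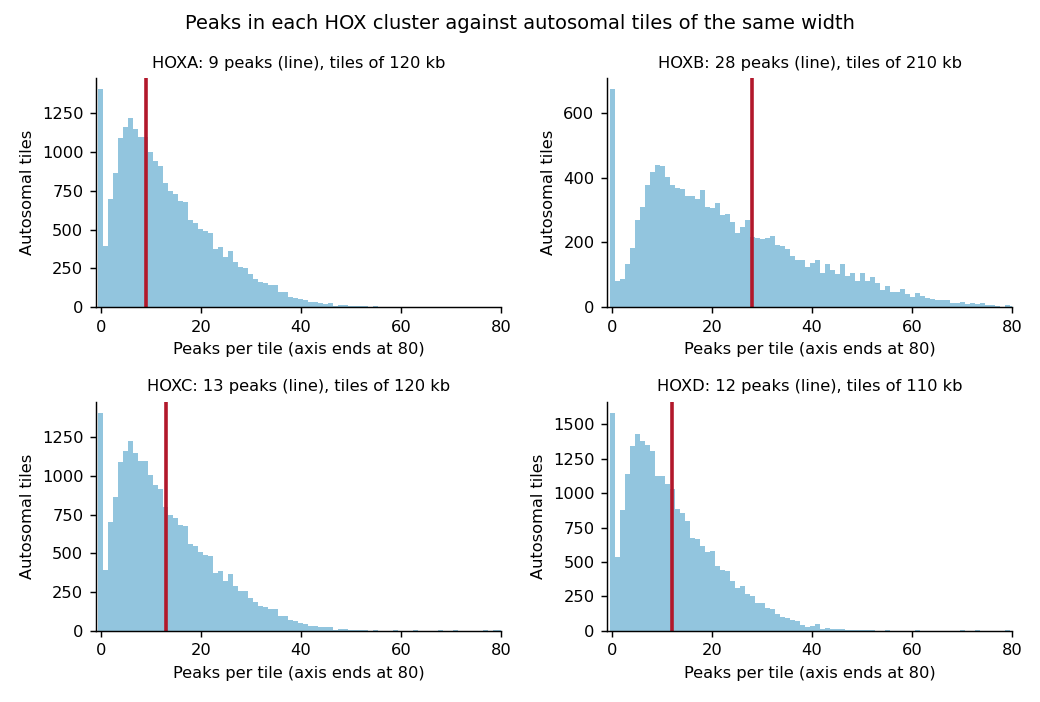
Number of autosomal tiles by the peaks they hold, for tiles as wide as each cluster, with the cluster's own count as a red line. Each line stands in the body of its distribution, at 9 peaks for HOXA, 28 for HOXB, 13 for HOXC and 12 for HOXD.

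HOXA was unevenly filled. It held 1 peak at 21.0 kb from its lower end and the other 8 from 85.6 kb onwards. The lone peak, at chr7:27150930-27151025, had 13 reads at its summit. No summit followed for 64.6 kb, 53.8% of the cluster, up to the peak at chr7:27215583-27215725 with 14 reads. A stretch at least as long was found in 8.75% of the 21860 autosomal tiles of 120 kb that held a peak, with a median of 29.8 kb. The lower flank of HOXA held a longer one, of 77.7 kb, which was 15.5% of that flank. The flank is 500 kb long and so has more room for a long stretch than the 120 kb of the cluster. The comparison with tiles was chosen after the stretch was seen. It left out the 1406 tiles without a peak. The tiles were not matched to HOXA for number of peaks, so the share reflects sparse tiles as well as unevenly filled ones.

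Beyond the stretch, the peak at chr7:27216639-27216725, with 15 reads, was the highest of HOXA. The peaks at chr7:27229367-27229471 and chr7:27249969-27250019 had 14 reads each, and the summit of the second lay 0.005 kb inside the limit of the window. Just outside HOXA the nearest peaks had 14 reads, 0.218 kb below the window, and 17 reads, 44.1 kb above it. The nearest summits outside HOXC, 0.408 kb below it and 4.22 kb above it, had 13 and 17 reads. Those outside HOXD had 14 reads on either side, 23.9 kb below and 1.25 kb above, and those outside HOXB 13 reads, 7.79 kb below and 5.17 kb above. With the limits moved out by 20 kb on each side, HOXA held 11 peaks in place of 9, HOXB 34 in place of 28, HOXC 25 in place of 13 and HOXD 13 in place of 12.

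The other clusters were more evenly filled. Cut into 4 stretches of equal length, counted from the lower-coordinate end, HOXB held 6, 4, 8 and 10 peaks, HOXC 6, 2, 3 and 2, and HOXD 2, 4, 3 and 3, where HOXA held 1, 0, 3 and 5. The longest stretches were 22.9 kb in HOXB, 27.6 kb in HOXC and 18.8 kb in HOXD. Stretches at least as long occurred in 80.8% of the tiles as wide as HOXB that held a peak, in 55.4% of those as wide as HOXC and in 78.5% of those as wide as HOXD. Inside HOXB a peak had its nearest neighbour at a median of 1.24 kb, with 15 of 28 peaks within 2 kb. That median was 2.84 kb in HOXC, 3.47 kb in HOXA and 5.16 kb in HOXD. Peaks within 2 kb of another were 2 of 13 in HOXC, 3 of 9 in HOXA and 5 of 12 in HOXD. The medians and these counts thus put HOXC, HOXA and HOXD in different orders. Spacing near that of HOXB was also found in flanks. The medians were 1.28 and 1.37 kb in the lower and higher flank of HOXC and 1.57 kb in the higher flank of HOXB. Peaks within 2 kb of another were 31 of 77 and 55 of 96 in the lower and higher flank of HOXB. They were 63 of 99 and 65 of 101 for HOXC, 20 of 54 and 22 of 63 for HOXA, and 14 of 45 and 22 of 55 for HOXD. The share over the whole list was not counted.

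**Figure D4:**
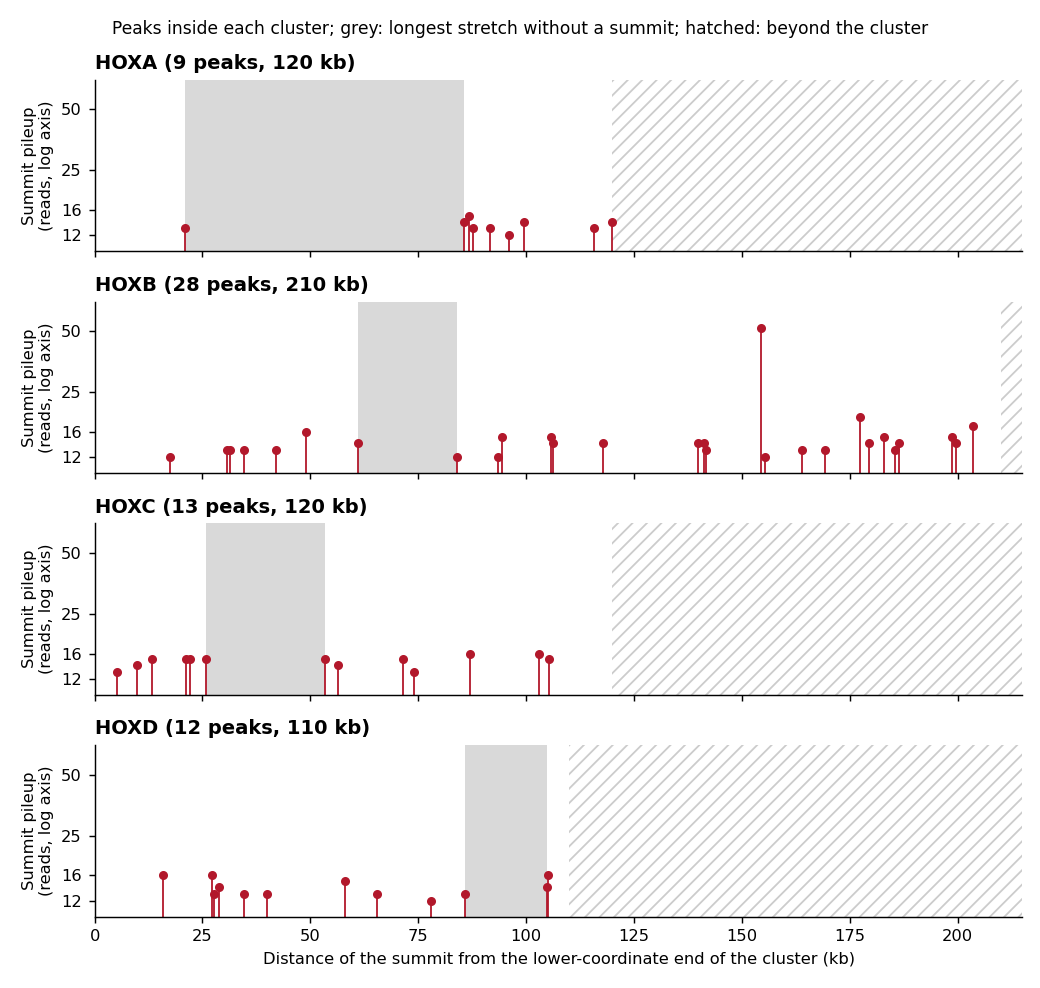
Summit pileup (reads, log axis) of the peaks inside each cluster against their distance from its lower-coordinate end (kb), with the longest stretch without a summit in grey and the part beyond the cluster hatched. The grey stretch fills 53.8% of HOXA, 10.9% of HOXB, 23.0% of HOXC and 17.1% of HOXD.

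A single peak inside the clusters was tall. It lay in HOXB at chr17:46754323-46754641, with its summit 154.5 kb from the lower and 55.5 kb from the higher end of the window. Its summit pileup, the number of reads stacked there, was 52 (exact Poisson interval 38.8 to 68.2) over a background of 4.29 reads. The fold enrichment, as the authors' peak caller gave it with 1 added to both values, was 10.0. The peak stood at rank 335 of the list by q and rank 260 by fold, and its width of 319 bp was the largest inside the clusters. The next summit, with 12 reads at chr17:46755267-46755319, was 0.799 kb away. At 25 reads or more this was 1 peak of the 62 inside (1.61%, 0.0408 to 8.66), against 4 of 590 in the flanks (0.678%, 0.185 to 1.73) and 0.889% of the whole list. The limit of 25 reads was set with the values known, and the interval inside spans both other shares.

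The remaining peaks of HOXB were low. The next were chr17:46777340-46777496 with 19 reads (11.4 to 29.7) and chr17:46803522-46803656 with 17 reads (9.9 to 27.2), both on the higher side of the tall peak. Then came chr17:46648954-46649060 with 16 reads and chr17:46694236-46694370, the first by position of 4 peaks with 15 reads. The counting intervals of the peaks of 19, 17, 16 and 15 reads named here overlap, so their order is not fixed by the data. The peaks nearest to the ends of the window were chr17:46617362-46617431, with 12 reads, and the peak of 17 reads already named.

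HOXC and HOXD had no peak above 16 reads. In HOXC the 2 highest, at 16 reads, were chr12:54416875-54416989 and chr12:54432950-54433123. They were followed by 7 peaks of 15 reads. The first of these by position were chr12:54343322-54343402, chr12:54351143-54351229 and chr12:54352053-54352169. The peaks nearest to the ends of HOXC had 13 reads at chr12:54335144-54335209 and 15 reads at chr12:54435214-54435354.

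In HOXD the 3 highest peaks, at 16 reads, were chr2:176965768-176965932, chr2:176977156-176977218 and chr2:177055026-177055173. The summit of the last of these was 0.336 kb from that of a peak of 14 reads, so the pair may be read as 1 site. Then came chr2:177007854-177007991 with 15 reads and chr2:176978886-176978944 with 14 reads. The highest peaks of HOXC and HOXD were thus at a level that 21.2% of the whole list reached.

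Most peaks inside the clusters were close to the lowest height that was listed. The median summit pileup was 14 reads inside, 14 in the flanks and 14 in the whole list. By cluster the median was 13 reads inside HOXA, 14 in HOXB, 15 in HOXC and 13.5 in HOXD, against 14 in the flanks of each. All 62 peaks inside shared the background of 4.29 reads, at which 1 read changes the fold enrichment by 0.189, and the list starts at 12 reads, so these medians lie within 3 reads of the lowest listed value. The median width was 84.5 bp inside and 99 bp in the flanks, where the whole list also had 99 bp.

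**Figure D5:**
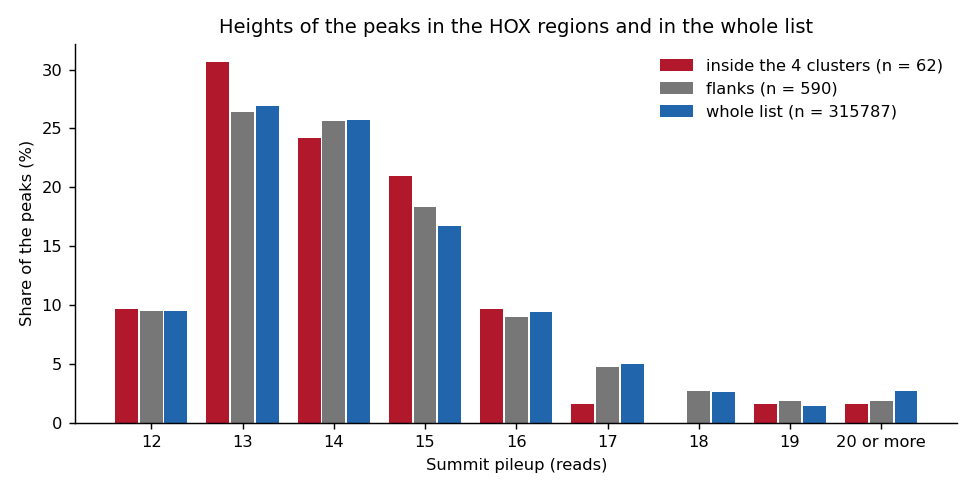
Share of the peaks (%) at each summit pileup (reads), inside the clusters (red, n = 62), in the flanks (grey, n = 590) and in the whole list (blue). In all 3 groups the shares are highest at 13 and 14 reads, and inside the clusters 1 peak reaches 20 reads or more.

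Strict peaks, with q of at most 0.01, made up 9 of 62 inside the clusters (14.5%, Clopper-Pearson interval 6.86 to 25.8), against 119 of 590 in the flanks (20.2%, 17.0 to 23.6) and 20.7% of the whole list. HOXA had 0 of 9, which allows a share of up to 33.6%, HOXB had 4 of 28, HOXC 2 of 13 and HOXD 3 of 12. The interval inside spans the share of the flanks and that of the list. A background above the level most peaks shared was found at 0 of 62 peaks inside (upper bound 5.78%), against 18 of 590 in the flanks (3.05%, 1.82 to 4.78) and 4.19% of the whole list.

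Peaks covered 0.624% of HOXA, against 1.2% of its flanks, and 1.36% of HOXB, against 1.94% of its flanks. They covered 1.13% of HOXC, against 2.24% of its flanks, and 1.15% of HOXD, against 1.07% of its flanks. The covered lengths depend on both the numbers and the widths of the peaks, and no test was made of them.

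The flanks held 4 peaks of at least 25 reads. The tallest was at chr2:177521097-177521416 in the higher flank of HOXD, 461.2 kb from the cluster, with 45 reads (32.8 to 60.2) and a fold enrichment of 8.7. Next came chr17:47281229-47281545 in the higher flank of HOXB, 471.4 kb from the cluster, with 33 reads (22.7 to 46.3) and a fold of 6.43. The same flank held chr17:47059425-47059608 with 27 reads and chr17:47103907-47104073 with 26 reads, the last of which was named after its value was seen. These peaks were, like the tall peak inside HOXB, at the shared background. The intervals of the 52 reads inside HOXB and of the 45 reads beside HOXD overlap.

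On the other flank sides the strongest peaks were lower. Below HOXC they had 24 reads at chr12:54083526-54083723 and 21 at chr12:54026023-54026195, and above it 19 reads each at positions 77.0 and 155.9 kb from the cluster. Below HOXA they had 20 reads each, at chr7:26961988-26962258 and chr7:27094434-27094610, and above it 17 reads each. Below HOXB they had 20 reads each, at chr17:46224250-46224395 and chr17:46238275-46238470. Below HOXD they had 19 and 17 reads, and the second above HOXD, 85.7 kb from the cluster, had 18 reads.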

How the data were processed

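Grouping of the 2 samples followed the transduction label. The submitters' processing notes name hg19, Bowtie2 (2.2.3) and MACS2 (2.1.1.20160309). Settings, and whether the untagged pool served as control, are not given in the sources at hand.

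The authors deposited 1 peak list with a summit per peak. The deposited fold values are linear ratios of the pileup at the summit over the background there, with 1 added to both. The deposited −log10 values belong to p and q. The deposited score column was not used. The lowest q shows a limit of 0.1. Pileup and background were recovered from fold = (pileup + 1)/(background + 1) and the Poisson upper tail. The pileup came out whole within 0.05 reads for 99.9997% of peaks, and 302553 peaks shared a background of 4.29 reads, within 0.005. Reads per library were not used here, so depth is given as pileup, and intervals cover counting error only.

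Peaks were assigned by summit. Densities were compared with two-sided exact conditional binomial tests, adjusted by Benjamini-Hochberg within each family of 4, 6 or 4 tests. These treat peaks as independent and compare regions of 1 library, not conditions. Counts were uneven along the flanks, from 6 to 32 peaks per 100 kb around HOXC. Where peaks clump, the intervals are too narrow and the p-values too small, and this was not tested. Named peaks were the 5 strongest by q and the 2 nearest to the ends in each cluster, and the 2 strongest of each flank side. Ties went to the higher fold and then to the lower position, so order among equal peaks is not order of strength. Regions and measures were chosen with earlier results of these data known. The recovery of pileup and the density test were tried on simulated data. The simulated counts were independent, so they do not show how the test behaves with clumped peaks. Alternatives were stricter q limits, merging, shared background only, shorter flanks, shifted limits and other references. The work was done with scipy 1.17.1, numpy 2.4.6, pandas 2.3.3 and matplotlib 3.10.9 under Python 3.11.15. Annotation of peaks with genes was left out, because the gene table is of GRCh38.p14.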

Additional observations from a re-analysis of the deposited data

How the results depend on the processing

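Of 194 alternative values, 144 kept their direction and side of the threshold or stayed within their interval or 1.5 times, 38 moved, 1 passed the threshold and 11 changed direction. Part of the 144 could not have changed. All 62 peaks inside the clusters were at the shared background, so values from these peaks alone were fixed under that alternative. In these regions a pileup of at least 16 reads also gave the same counts as q of at most 0.01, 9 of 62 inside and 119 of 590 in the flanks. The tally is therefore no measure of robustness. Of the 75 density ratios 1 passed the test. No paired analysis was possible because 1 pooled list was analysed, and no replicate could be left out. The ratio of HOXB to HOXA and of the other clusters to HOXA could not be formed at q of at most 0.01, where HOXA had 0 peaks. Causes were not tested. A stricter q limit keeps fewer and stronger peaks by definition.

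HOXC over its flanks was 0.442 with flanks of 100 kb. HOXD over its flanks was 0.84 with limits moved out by 20 kb. HOXD over HOXC was 0.923 at q of at most 0.05, 0.909 with merged summits and 0.555 with moved limits, but 1.64 at q of at most 0.01. HOXB over HOXD was 0.698 at q of at most 0.01, and HOXB over HOXC 0.87 with moved limits. Lower over higher flank was 1.11 for HOXA and 1.18 for HOXB at q of at most 0.01, and 1.5 for HOXA, 1.8 for HOXB and 1.45 for HOXC with flanks of 100 kb. None of the ratios that changed direction passed the test under either setting.

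At q of at most 0.01 the median pileup was 16 reads inside and 17 in the flanks, the median fold 3.22 inside and 3.4 in the flanks, and the median width 148 bp inside and 146 bp in the flanks. Peaks above the shared background made up 0.84% of those in the flanks at that limit, and 1.75% with flanks of 100 kb. The longest stretch without a summit at q of at most 0.01 was 120 kb inside HOXA and 234.0 kb in its flanks. It was 105.4 and 105.2 kb for HOXB, 86.9 and 127.5 kb for HOXC, and 77.9 and 154.3 kb for HOXD. The 120 kb of HOXA is its whole window, which held 0 peaks at that limit. With flanks of 100 kb and all peaks, the longest stretch was 44.1 kb beside HOXA, 14.6 kb beside HOXC and 29.1 kb beside HOXD.

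The share of tiles with at most as many peaks as the cluster ranged as follows. For HOXA it was 44.5% at q of at most 0.05, 24.97% at 0.01, 42.3% merged, 44.9% at the shared background and 39.2% with moved limits. For HOXB it was 66.4%, 61.2%, 62.7% and 69.6% under the first 4 of these. For HOXC it was 64.8%, 61.1%, 61.4%, 60.7% and 75.8%, and for HOXD 61.7%, 75.2%, 57.0%, 61.5% and 48.9%, under all 5.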
